A study of Mus musculus with 48 samples.

Results

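Immune checkpoint genes encode inhibitory receptors of lymphocytes and the ligands that engage them. The 9 genes described here were taken by symbol from a count table of 55486 mouse genes in 48 RNA-seq libraries, and all 9 symbols were found. They are the ligands Cd274 (PD-L1), Pdcd1lg2 (PD-L2), Cd276 (B7-H3) and Vsir (VISTA), and the receptors Pdcd1 (PD-1), Ctla4 (CTLA-4), Lag3 (LAG-3), Havcr2 (TIM-3) and Tigit (TIGIT). The samples came from a QPCTL-KO C57/Bl6JR strain, QPCTL being a Golgi glutaminyl cyclase that converts amino-terminal glutamine to pyroglutamate. At baseline, without inoculation, 8 samples each of lymph node, spleen and bone marrow were collected as whole organs at an age of 10 to 15 weeks. Lymph nodes and sorted CD45-negative cells, 12 samples each, were taken 14 days after inoculation with B16F10, an established mouse melanoma line. In each of these groups the labels give equal numbers of homozygous QPCTL-KO mice and wild-type littermates. Knockout mice received QPCTL-KO tumour cells, and wild-type mice received QPCTL-WT tumour cells.

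The count columns name a tissue and a running number, with no genotype and no inoculation. Genotype therefore remained in the spread of every tissue, and the 8 baseline and 12 tumour-bearing lymph nodes were described as 1 group of 20 libraries. Tumour-bearing against baseline lymph node, the comparison that asks whether checkpoint genes change with a tumour, is not analysed here. Mouse numbers recur across tissues in the sample titles, but the columns do not carry them, so libraries of 1 mouse could not be paired. Organs were frozen whole and tumour cells were sorted and lysed directly, so the effects of preparation and tissue cannot be told apart.

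T cells raise PD-1, CTLA-4, LAG-3, TIM-3 and TIGIT on activation, and regulatory T cells carry CTLA-4 and TIGIT constantly. PD-1 binds PD-L1 and PD-L2, and PD-L1 is induced on many cells by interferon gamma through JAK and STAT signalling and the factor IRF1. VISTA is an inhibitory ligand carried mainly by myeloid cells, and B7-H3 is found on many tumours and stromal cells.

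The total count ranged from 54117 to 637985 per library with a median of 302135.5, which is 1.68% of the average of 18 M reads per sample that the labels give. The libraries were made with a kit that keeps the strand of the RNA, and the strand setting of the counting is not given in the sources used here. The mitochondrial genome offers a check, since mt-Nd6 is its protein-coding gene on the light strand. In the 4 tissues mt-Nd6 held between 14.8 and 25.5 times the median count of 6 heavy-strand genes. Genes with at least 50 exonic bases opposite a coding exon were 9.01% of all genes and held 61.2% to 83.8% of a library's counts. Foxp3, the regulatory T cell factor, has 590 such bases and reached a median of 382 CPM, that is, counts scaled to a library total of 1e6, in CD45-negative cells, where Ptprc, the gene of CD45, had no count in any of 12 libraries. Whether a count stands for RNA of the named gene or for RNA of the opposite strand was not tested, and this limit applies to every level below. Qpctl, the targeted gene, has 471 bases opposite a coding exon, had counts in every library, and could not check the genotype labels because the columns carry none. Spleen libraries 5, 6 and 8 and tumour cell library 4 stood apart, with a median correlation below 0.84 with their own tissue.

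Bone marrow and the CD45-negative cells held the markers of their labels. The 10 granulocyte markers summed to between 14504 and 36750 CPM in bone marrow and to at most 25.1 CPM in lymph node. The 10 melanoma markers summed to between 2336 and 8453 CPM in the CD45-negative cells, where 6 of 10 leukocyte markers and 7 of 12 T cell markers including Cd3d, Cd3e and Cd3g were at 0 in all 12 libraries. Of the T cell marker counts that remained in those cells, 97% lay in 3 markers with exonic bases on the opposite strand. The macrophage and monocyte markers had a median summed level of 444 CPM there, and the regulatory T cell markers 400 CPM. Of the counts in these 2 lists, 94.7% and 99.6% lay in markers with exonic bases on the opposite strand. Fibroblast markers were also present there, from 22 to 2076 CPM. The melanoma markers summed to at most 958 CPM in lymph node, 269 in spleen and 112 in bone marrow. Of these counts 80.2%, 96.8% and 93.5% lay in 1 marker with exonic bases on the opposite strand. Dct, a melanoma marker without such bases, had counts in 4 of 20 lymph node libraries, up to 243 CPM, and none in spleen or bone marrow. The 20 lymph node libraries varied widely, from 190 to 1240 CPM summed over 7 leukocyte markers without opposite-strand exons. They mix 8 baseline and 12 tumour-bearing nodes, and whether these differ was not tested, so each value against lymph node is a value against this mixture.

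The differences between tissues described below rest mainly on Vsir, Cd274 and Cd276, and their promoters are shown for that reason. The windows run from 250 bases before to 50 after the RefSeq start (GRCm38.p6), 5′ to 3′ on the gene's strand. Capitals mark the match to an interferon regulatory factor motif.
Cd274 (chr19:29367188-29367487, plus strand): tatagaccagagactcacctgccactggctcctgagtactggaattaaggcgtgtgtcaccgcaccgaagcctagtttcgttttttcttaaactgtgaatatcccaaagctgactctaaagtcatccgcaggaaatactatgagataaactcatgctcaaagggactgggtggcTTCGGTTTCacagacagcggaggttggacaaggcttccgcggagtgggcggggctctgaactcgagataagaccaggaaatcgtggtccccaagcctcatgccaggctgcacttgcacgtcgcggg
Vsir (chr10:60346601-60346900, plus strand): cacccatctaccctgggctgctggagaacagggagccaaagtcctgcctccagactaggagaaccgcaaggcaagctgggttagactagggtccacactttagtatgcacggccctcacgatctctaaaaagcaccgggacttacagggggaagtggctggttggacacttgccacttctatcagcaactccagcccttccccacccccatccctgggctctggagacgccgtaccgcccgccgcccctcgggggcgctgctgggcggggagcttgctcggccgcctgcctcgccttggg
Cd276 (chr9:58554984-58555283, minus strand): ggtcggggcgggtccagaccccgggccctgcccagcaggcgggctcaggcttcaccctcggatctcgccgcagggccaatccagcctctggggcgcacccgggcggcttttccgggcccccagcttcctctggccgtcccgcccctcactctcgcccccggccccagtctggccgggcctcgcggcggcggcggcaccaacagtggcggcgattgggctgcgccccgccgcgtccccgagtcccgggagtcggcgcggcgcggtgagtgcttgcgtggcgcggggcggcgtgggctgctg
RefSeq windows were found for 8 of the 9 genes, and Lag3 had no entry. They were searched on both strands for the STAT site TTCNNNGAA, the interferon regulatory factor motif GAAANNGAA and the AP-1 site TGANTCA. These occur in 8.3%, 8.56% and 7.81% of 32851 promoter windows. The interferon regulatory factor motif occurred once in Cd274, at position 175 of the window, and once in Ctla4. The AP-1 letters occurred once in Havcr2, and the other 5 windows held none of the 3 motifs. GC content was 52.7% for Cd274, 63.7% for Vsir and 78.3% for Cd276, beside a median of 52.7% over all windows.

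Vsir had the highest level of the 9 genes in the 3 organs, also per kilobase of exon, and was concentrated in bone marrow. It lies on chromosome 10 at 60346851 to 60372684 (GRCm38, plus strand), inside the span of Cdh23 on the opposite strand. In bone marrow the level was 97.5 CPM at the lowest, 184 at the median and 251 at the highest of 8 libraries, with a mean of 175 ± 52.3 (SD, n = 8). Spleen ran from 18.2 to 64.5 with a median of 39.1 CPM, and lymph node had a median of 29.7 CPM with a highest value of 66.8. Every bone marrow library lay above every spleen and lymph node library, while spleen and lymph node overlapped. The CD45-negative cells had no Vsir count in 12 libraries.

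Vsir was the only one of the 9 genes to pass the filter on low counts, which 5504 genes passed. In edgeR's quasi-likelihood test with Benjamini-Hochberg adjustment, bone marrow was higher than lymph node by 2.49 on the log2 scale (approximate SE 0.20, adjusted p = 2.0e-15) and higher than spleen by 2.03 (SE 0.25, adjusted p = 3.6e-09). Spleen and lymph node differed by 0.46 (SE 0.24, adjusted p = 0.11), which did not pass. Of the 5504 genes, 66.8%, 39.1% and 43.3% were called in these comparisons. In the CD45-negative cells, 3 counts over the group correspond to 0.884 CPM. The summed level of Vsir was 207 times this value in bone marrow, 51.3 times in spleen and 34.3 times in lymph node. The 3 comparisons with CD45-negative cells called Vsir as well, at adjusted p = 7.9e-15 or below by the same test, while 75.3%, 68.5% and 67.8% of the 5504 genes were called against lymph node, spleen and bone marrow.

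Leukocyte markers also moved with the tissue. Over 7 leukocyte markers without opposite-strand exons, Vsir came to a median of 11.2% of their summed level in bone marrow (9.47% to 13.8%), 4.16% in spleen (2.97% to 10.6%) and 4.84% in lymph node (1.65% to 13.1%). Against 11 macrophage and monocyte markers the medians were 10.6%, 8.05% and 5.29%, and by either list the ranges of the 3 organs overlapped. In bulk samples, fewer cells of a type and less RNA per cell cannot be told apart. Cdh23, a cadherin gene on the other strand that shares no exonic base with Vsir, was also highest in bone marrow (median 142 CPM, against 38.2 in spleen and 38.8 in lymph node) and had no count in the CD45-negative cells. Its part in the Vsir result was not tested.

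**Figure D1:**
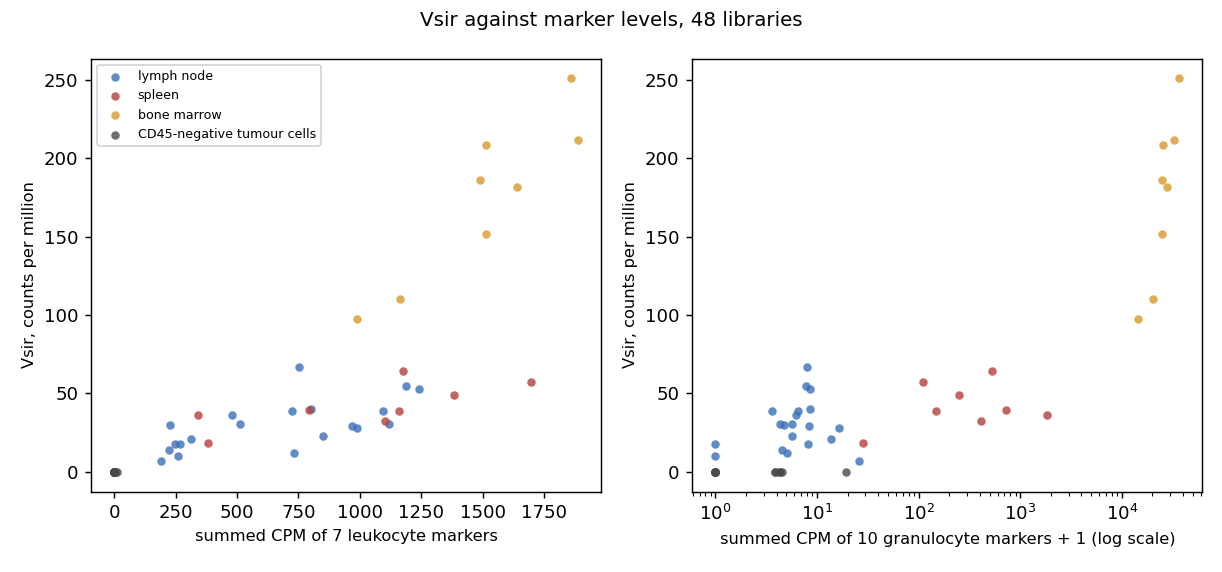
Vsir in CPM (vertical axis) against the summed CPM of 7 leukocyte markers (left) and of 10 granulocyte markers plus 1 on a log axis (right), 1 point per library. Bone marrow libraries lie at 97.5 to 251 CPM of Vsir, and the 12 CD45-negative libraries lie at 0.

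Cd274 encodes PD-L1 and was counted in 41 of 48 libraries, at low counts. It lies on chromosome 19 at 29367455 to 29388095 (plus strand). Lymph node had a median of 12.3 CPM and counts of 0 to 15, and spleen had a median of 13.1 CPM and counts of 2 to 20. Bone marrow held 0 to 4 counts with a median of 4.57 CPM, and the CD45-negative cells held 0 to 8 counts with a median of 5.13 CPM. All tissues overlapped, and the lymph node range of 0 to 37.8 CPM covered that of the CD45-negative cells, 0 to 24.4 CPM. The summed counts came to 17 CPM in spleen, 14.8 in lymph node, 7.08 in CD45-negative cells and 4.57 in bone marrow, and the neighbours spleen and lymph node (adjusted p = 1) and CD45-negative cells and bone marrow (adjusted p = 0.52) were not separated.

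Since 8 of the 9 genes did not pass the filter, they were tested by the same quasi-likelihood test with Benjamini-Hochberg adjustment in a fit of all 26748 genes with a count, where such low counts leave wide errors. Cd274 was lower in bone marrow than in lymph node by a log2 difference of -1.75 (SE 0.43, adjusted p = 0.00037) and lower than in spleen, at -1.74 (SE 0.48, adjusted p = 0.0042). In CD45-negative cells it was lower than in lymph node, at -1.27 (SE 0.38, adjusted p = 0.0036) and lower than in spleen, at -1.26 (SE 0.44, adjusted p = 0.018). The last of these rests on spleen library 3, which held 20 of the 46 spleen counts, and without it the difference was -0.95 with an adjusted p of 0.14. It was also lost with library size scaling (-1.12, adjusted p = 0.058).

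Gm36043, annotated on the strand opposite Cd274 with 511 shared exonic bases, held far more counts than Cd274. It had 90 to 352 counts per library in lymph node, 18 to 159 in spleen, 10 to 54 in bone marrow and 10 to 177 in CD45-negative cells. Its summed level was 680 CPM in lymph node, 275 in spleen, 258 in CD45-negative cells and 72.6 in bone marrow. In the filtered fit its log2 difference from lymph node was -1.38 in spleen, -3.30 in bone marrow and -1.33 in CD45-negative cells, and each of these passed (adjusted p = 4.8e-05 or below). Cd274 and Gm36043 were thus both lowest in bone marrow, and only Gm36043 was called between spleen and lymph node. This difference between the 2 genes was not tested, nor was the share of Gm36043 counts that comes from Cd274 RNA.

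**Figure D2:**
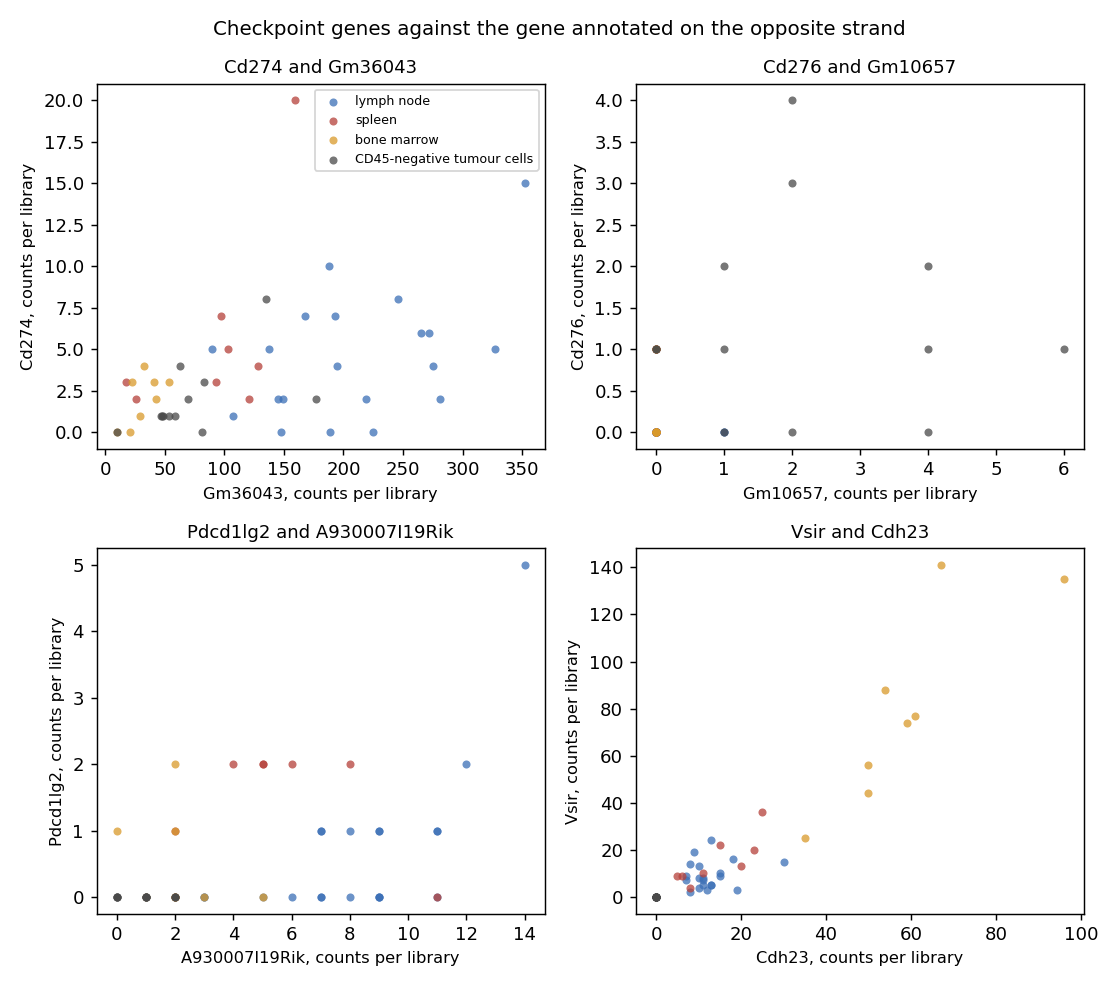
Counts per library of 4 checkpoint genes (vertical axes) against the gene annotated on the opposite strand (horizontal axes), coloured by tissue. Gm36043 reaches 352 counts where Cd274 reaches at most 20, and Cdh23 and Vsir are both highest in bone marrow.

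Pdcd1lg2 encodes PD-L2, the second ligand of PD-1, found mainly on dendritic cells and macrophages. It had counts in 6 of 8 spleen libraries (at most 2), in 9 of 20 lymph node libraries (at most 5), in 3 of 8 bone marrow libraries and in none of 12 CD45-negative libraries. The summed level was 4.06 CPM in spleen, 2.28 in lymph node and 1.14 in bone marrow, and these 3 tissues did not differ past the threshold (adjusted p from 0.12 to 0.48). The summed level of Pdcd1lg2 was 4.59 times the value of 3 counts in CD45-negative cells in spleen, and 2.58 times in lymph node. These ratios leave out the counting error of spleen and lymph node. Pdcd1lg2 was called lower in CD45-negative cells in both comparisons. A930007I19Rik lies opposite Pdcd1lg2 without shared exonic bases and was also lower in CD45-negative cells than in lymph node, with a log2 difference of -3.16 (adjusted p = 1.7e-13).

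Cd276 was the 1 gene of the 9 that was higher in the CD45-negative cells. It lies on chromosome 9 at 58524298 to 58555437 (minus strand). The 12 CD45-negative libraries held 16 counts, at most 4 in a library, with counts in 9 libraries, a median of 4.84 CPM and a highest value of 18.5 CPM, which is 1 count in the shallow tumour cell library 4. Lymph node held 2 counts in 20 libraries, spleen 3 and bone marrow 2 in 8 libraries each, and the groups overlapped at 0. The summed level of the CD45-negative cells was 14.5 times that of lymph node, with a counting interval of 3.4 to 130, and 8.25 times that of bone marrow (1.94 to 74). The fit gives another measure than these ratios of summed counts, and its differences were smaller. Its log2 differences by edgeR's test were 2.68 against lymph node (SE 0.60, adjusted p = 8.0e-05) and 2.32 against bone marrow (SE 0.68, adjusted p = 0.0034). Against spleen the difference was 1.64 (SE 0.68, adjusted p = 0.054), which did not pass here and passed with RLE scaling (adjusted p = 0.0499), with library size scaling and in a fit of these tissues alone. Gm10657, which shares 416 bases with Cd276 exons on the opposite strand, held 27 counts in CD45-negative cells and 2 in lymph node, and none in spleen or bone marrow.

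The 5 receptors were close to the limit of detection in every tissue. Together they held 72 counts in 20 lymph node libraries, 49 in 8 spleen libraries, 8 in bone marrow and 1 in CD45-negative cells, and 54%, 57.5%, 85% and 98.3% of their values were 0. The 1 count in CD45-negative cells was Tigit, a receptor for the poliovirus receptor Pvr. Counting intervals and limits cover counting error only.

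**Figure D3:**
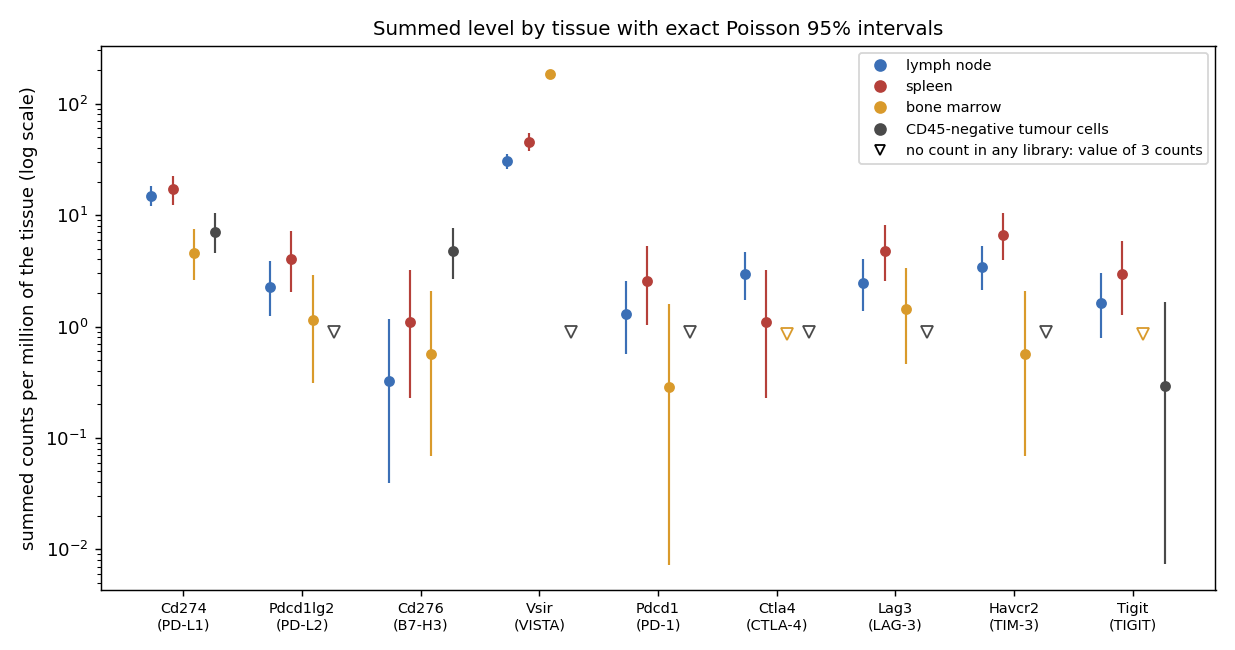
Summed level of each gene by tissue on a log axis, with exact Poisson intervals of 95%, and open triangles at the value of 3 counts where no library had a count. Spleen and lymph node intervals overlap for each gene but Vsir.

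Havcr2, the receptor TIM-3 of T cells and myeloid cells, had 21 counts in lymph node and 18 in spleen, with summed levels of 3.43 and 6.64 CPM, and 2 counts in bone marrow. Bone marrow was lower, with log2 differences of -2.10 against lymph node (adjusted p = 0.012) and -2.83 against spleen (adjusted p = 0.0019) by edgeR's test of all genes with a count, and the first was lost in DESeq2 (adjusted p = 0.051). Tigit had 10 counts in lymph node, 8 in spleen and none in bone marrow, at least 1.9-fold and 3.44-fold higher than bone marrow, and was called in both by edgeR (adjusted p = 0.0075 and 0.0029) and in neither by DESeq2 (adjusted p = 0.13 in both). Ctla4, the receptor for Cd80 and Cd86, had 18 counts over 11 of 20 lymph node libraries, 3 in spleen and none in bone marrow. Its summed level in lymph node was 3.42 times the bone marrow value of 3 counts, and edgeR called it lower in bone marrow (adjusted p = 0.00024).

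Pdcd1 encodes PD-1 and had 8 counts in lymph node, 7 in spleen, of which 5 came from spleen library 3, and 1 in bone marrow. Lag3, a receptor for MHC class II, had 15, 13 and 5. Neither gene was called between the 3 organs, with adjusted p from 0.058 to 0.59. Without the 4 libraries that stood apart, Pdcd1 was lower in bone marrow than in spleen (-2.46, adjusted p = 0.024). Spleen and lymph node were not separated for any of the 9 genes, with adjusted p from 0.25 to 1, where 13.1% of all 26748 genes were called. In bone marrow against lymph node 4 of the 9 genes were lower (Cd274, Ctla4, Havcr2 and Tigit) and Vsir was higher, where 31.7% of all genes were called and 17.1% were lower. In bone marrow against spleen 3 of the 9 were lower (Cd274, Havcr2 and Tigit) and Vsir was higher, where 15.3% of all genes were called and 9.02% were lower.

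Against lymph node, 7 of the 9 genes were lower in the CD45-negative cells and Cd276 was higher, and Tigit did not pass (adjusted p = 0.056). In this comparison 36.8% of all genes were called and 21.6% were lower. The Pdcd1 call against lymph node rests on 8 counts against none. Its counting intervals overlapped, at 0.563 to 2.57 CPM in lymph node and 0 to 1.09 CPM in CD45-negative cells. The median log2 difference was -2.07 over the 4 ligands and -2.96 over the 5 receptors, beside -0.19 over all genes, and -1.32 and -1.72 with genes that had no count in CD45-negative cells set to their bound of 3 counts. Against spleen 7 of the 9 were lower (all but Ctla4 and Cd276), where 29.6% of all genes were called and 19% were lower. Ctla4 passed as well without the 4 libraries that stood apart (-2.35, adjusted p = 0.045). The Pdcd1 call against spleen was lost without spleen library 3 (-1.78, adjusted p = 0.12), and the Tigit difference of -2.31 became -3.09 without tumour cell library 12, which held its 1 count. Against bone marrow Vsir and Lag3 were lower and Cd276 higher, where 30.9% were called. Pdcd1lg2 (adjusted p = 0.054) passed there in a fit of these tissues alone (-2.07, adjusted p = 0.047). The Lag3 call was lost without bone marrow library 6 (-1.42, adjusted p = 0.19) or library 7 (-2.09, adjusted p = 0.051) and in DESeq2 (adjusted p = 0.44). In DESeq2 the calls of Pdcd1lg2, Ctla4 and Lag3 against lymph node (adjusted p = 0.097, 0.068 and 0.11) and of Tigit against spleen (0.22) were lost too. Comparisons to which DESeq2 gave no adjusted p were left out. A call not reported as lost in DESeq2 was therefore not necessarily kept there. The sort removed cells with surface CD45, and the leukocyte markers at 0 in these cells are given above beside the markers of the other tissues.

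**Figure D4:**
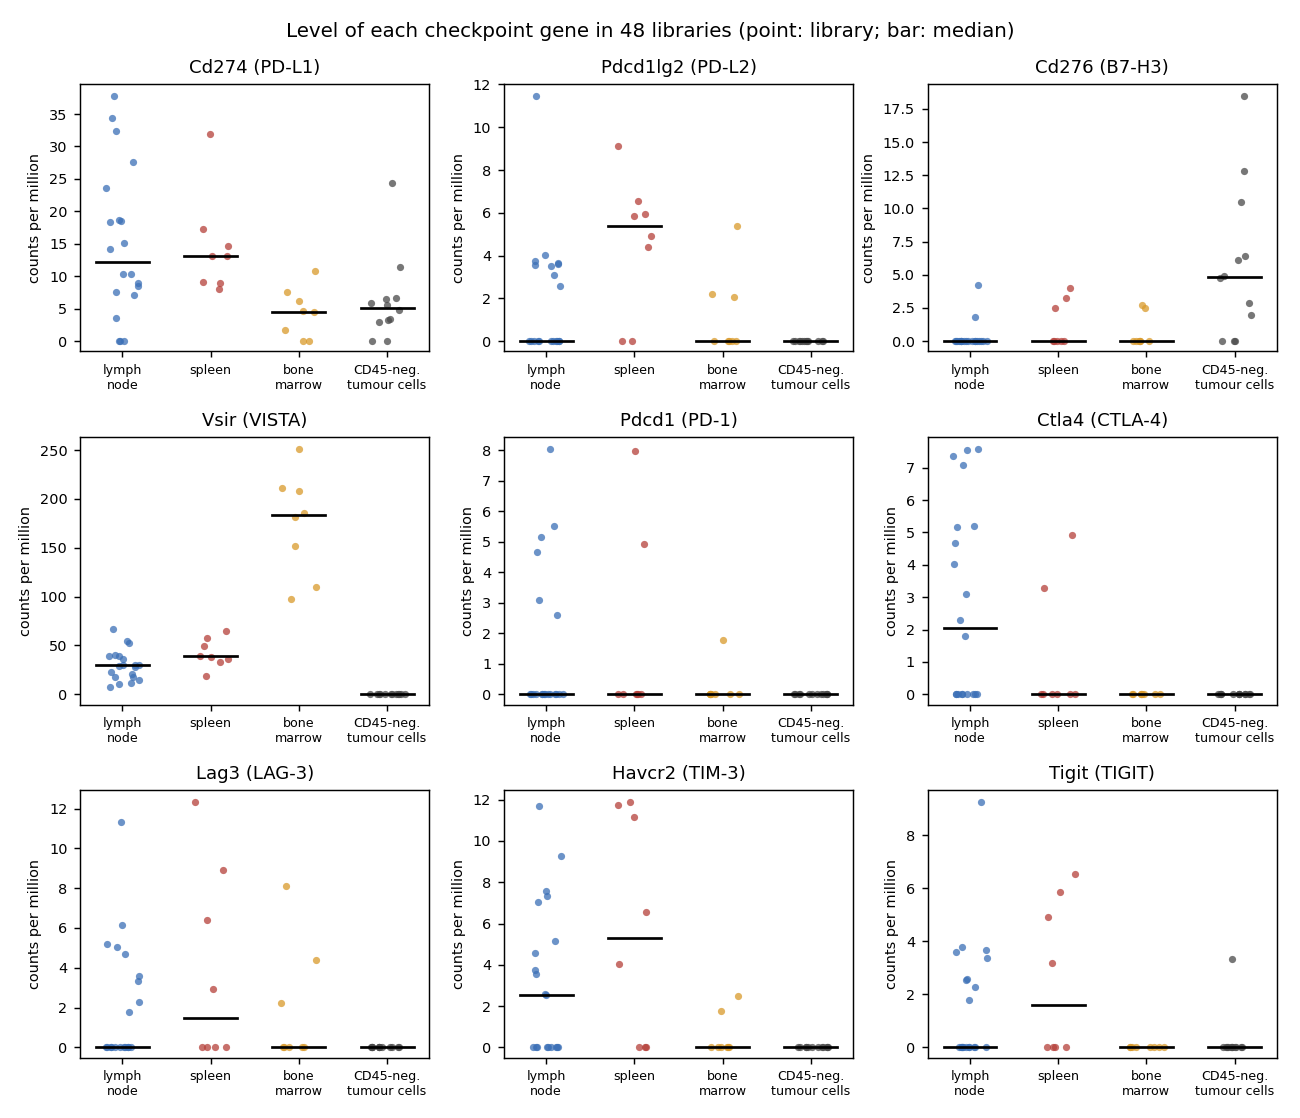
Level of each checkpoint gene in CPM in each library, with 20 lymph node, 8 spleen, 8 bone marrow and 12 CD45-negative tumour cell libraries, and a bar at the median. Vsir separates bone marrow from the other tissues, and 6 genes are at 0 in all CD45-negative libraries.

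Genes of the same pathways are given as counts over whole lists, and the genes named are those of each list with the smallest p in CD45-negative cells against lymph node, so their values are a selection. In that comparison, in the fit of all genes with a count, 15.1% of all genes were higher and 21.6% lower. Genes with more counts were called more often. Of the 5504 genes that passed the filter, 75.3% were called in the filtered fit, 2181 higher and 1963 lower. Of the B7 and CD28 family, 8 of 11 measured genes were lower in CD45-negative cells than in lymph node and none was higher, with a median of -3.19, or -2.02 with the 6 genes without a count there at their bound. Btla, an inhibitory receptor of lymphocytes, and Cd86, the ligand of CD28 and CTLA-4, had no count there and medians of 31.7 and 10.8 CPM in lymph node. Icosl, the ligand of ICOS, had a median of 16.7 CPM in lymph node and 3 counts in CD45-negative cells. Of the nectins and their receptors, 3 of 10 were higher and 5 lower, beside the same 15.1% and 21.6% of all genes. Pvr, the ligand of TIGIT, was higher in CD45-negative cells than in lymph node by 2.03 (median 13.6 against 2.71 CPM, adjusted p = 5.4e-06), and so was the adhesion gene Cadm1 by 3.77 (median 73.4 against 3.22 CPM). Cd96, a receptor of this family, had 32 counts in lymph node and none in CD45-negative cells.

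Of a list of 10 ligands of LAG-3, TIM-3 and VISTA and related genes, 3 were higher and 5 lower in CD45-negative cells than in lymph node, and 6 were higher and 2 lower in bone marrow. Of all genes, 15.1% were higher and 21.6% lower in the first comparison, and 14.6% and 17.1% in the second. Lgals3, a galectin that binds LAG-3, was higher in both, with medians of 119 CPM in CD45-negative cells and 141 in bone marrow against 14.5 in lymph node (adjusted p = 6.0e-22 and 4.7e-20). Selplg encodes PSGL-1, which binds VISTA, and was higher in bone marrow by 1.12 (median 197 against 90.1 CPM in lymph node), with 1 count in CD45-negative cells. Timd4, a member of this list that is a phosphatidylserine receptor rather than a ligand of these proteins, had no count in bone marrow or CD45-negative cells and 283 in lymph node. Of 12 other inhibitory receptors and ligands 9 were lower in CD45-negative cells, among them Cd48, Cd5 and Cd200.

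Of 11 measured regulators of PD-L1, 8 were lower and 1 was higher in CD45-negative cells than in lymph node. Jak1, the kinase of interferon receptors, was lower, with a log2 difference of -1.97 (adjusted p = 1.0e-11), Cmtm6, which stabilises PD-L1 at the surface, was at -2.43 (adjusted p = 9.2e-09), and Irf1 at -1.57 (adjusted p = 2.5e-09), although Irf1 has 135 exonic bases on the opposite strand. Of 16 regulators of PD-1 and exhaustion, 10 were lower and 4 higher, where 21.6% and 15.1% of all genes were. Ptpn6, the gene of the phosphatase SHP-1, and Tcf7, a factor of naive and stem-like T cells, were both lower, with a log2 difference of -3.19, and Nr4a3, an orphan nuclear receptor, was higher by 3.08 (median 63.9 against 3.9 CPM). Ptpn6 has 195 exonic bases on the opposite strand.

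Within the 20 lymph node libraries, the protein-coding genes whose log2(CPM + 1) followed Vsir most closely were Vti1a (Pearson r 0.89, Spearman rho 0.92), Ski (0.88 and 0.90) and Ttc3 (0.82 and 0.79), out of 8111 searched. For Cd274 they were Itpripl2 (0.87 and 0.79), Dyrk2 (0.81 and 0.60) and Ltv1 (0.80 and 0.79). These are descriptions over libraries that share an organ and differ in depth and leukocyte marker level, and at counts this low a correlation is no finding. The other 7 genes were counted in at most 11 of the 20 libraries and are not given.

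The authors' deposited table compares CD45-negative tumour cells and does not state which genotype was subtracted. It holds 2 of the 9 genes. In the authors' deposited table the log2 fold change of Cd274 was -1.12 (adjusted p = 0.39) and that of Cd276 was -0.55 (adjusted p = 0.75), and neither passed, where 0.644% of its 11340 genes did. For Gm36043 the authors' deposited table gives 0.66 (p = 0.0079, adjusted p = 0.15), and for Gm10657 it gives 0.50 (adjusted p = 0.71). Vsir and the 5 receptors, with at most 1 count in these cells, and Pdcd1lg2 are not among its genes.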

How the data were processed

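Poly(A) RNA of 48 mouse samples was sequenced as paired-end reads of 50 bp with a kit that keeps strand, per the labels' protocols. The submitters' processing notes list the tools HISAT2 and edgeR, with builds given as GRCm38 and mm10. The sources used here give neither the counting program nor its strand setting. The deposited count table holds whole-number read counts per gene, and each column names a tissue and a number only, so 20 lymph node, 8 spleen, 8 bone marrow and 12 CD45-negative tumour cell libraries were grouped by tissue. The planned comparison of tumour-bearing with baseline lymph node, and the ratio of members to T cell markers in it, were not run, and tumour cells were compared with all lymph node libraries. Where nothing says that samples are separate animals beyond the titles' mouse numbers, p-values measure the spread between these samples. No 2 libraries were identical.

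Counts were tested with edgeR 4.0.16 (R 4.3.3), TMM scaling, filterByExpr and the robust quasi-likelihood test, with 1 fit of all libraries, Benjamini-Hochberg adjustment and a threshold of 0.05. The SE was computed from the log2 fold change and F and is approximate. Alternatives were RLE and library size scaling, DESeq2 1.42.0, no filter, a fit of the compared tissues alone, and, chosen after seeing the data, leaving out each library or the 4 that stood apart, genes without opposite-strand exons, and the comparisons of tumour cells with spleen and bone marrow. The scripts were tested on simulated data. CPM are counts divided by the library total and scaled to 1e6, and summed levels carry exact Poisson intervals of 95%. Strand and exons came from GENCODE M21, in which 99.5% of identifiers were found. Tables were made in Python 3.11.15 with pandas 2.3.3, scipy 1.17.1 and numpy 2.4.6.

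From a second table, of the authors' own comparison of tumour cells, the deposited log2 fold change, mean log2 CPM, F statistic (a score) and p-value, raw and adjusted, were copied without own tests. The members and lists were chosen with earlier results of these data known. Named partner genes are the 3 members of each list with the smallest p in tumour cells against lymph node, which replaced the planned comparison after the data were seen. Named marker genes have the highest mean CPM or define the cell type, and likeness used genes with a mean of at least 5 CPM. The B cell marker list is not reported here.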

Additional observations from a re-analysis of the deposited data

Results flagged for a closer look

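Of 16 sets of 8 libraries with unequal values (the 9 genes in spleen and in bone marrow), 3 held a library far from the other 7, a rule by which chance flags about 1 set in 20 for continuous values. That rate does not apply to sets mostly at 0, so nothing is read from the number of sets. Cd274 reached 31.9 CPM (20 counts) in spleen library 3, where the next highest spleen library had 17.2 CPM. Pdcd1lg2 reached 5.41 CPM in bone marrow library 2, from 2 counts in a set with 5 libraries at 0, with the next at 2.22 CPM. Pdcd1 reached 1.78 CPM in bone marrow library 4, from the 1 count of that tissue, so that its distance from the others follows from the counts. The causes were not tested.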

How the results depend on the processing

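No paired analysis was possible because the count columns give running numbers that match no mouse number of the titles. The alternatives for tumour-bearing against baseline lymph node were not run, since the columns do not separate the groups. The number of genes called kept within 1.5 times of the reported number under RLE, library size scaling, DESeq2, without the 4 libraries that stood apart, and with each of 48 libraries left out, in all 6 comparisons. Without a filter, with 26748 genes tested in place of 5504, 8480 genes (bone marrow against lymph node), 4084 (bone marrow against spleen), 9834, 7919 and 8260 (CD45-negative cells against lymph node, spleen and bone marrow) were called. Over genes without opposite-strand exons 964 (spleen against lymph node), 1511, 923, 1840, 1699 and 1698 were called in the same order, beside 2385, 3678, 2152, 4144, 3769 and 3734 reported. The number of genes tested in that fit is not given here, so the share called cannot be compared. A fit of CD45-negative cells and spleen alone called 2479.

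With RLE scaling the median log2 difference of all genes moved from 0.09 to -0.09 in CD45-negative cells against lymph node, from -0.03 to -0.22 against spleen and from -0.06 to -0.19 against bone marrow. Values near 0 that did not pass changed sign. Gm36043 in CD45-negative cells against spleen went from 0.05 to -0.15 (RLE and DESeq2), -0.064 (library size), -0.34 (these tissues alone) and -0.10 (without the 4 libraries). Cd274 in spleen against lymph node went from -0.01 to 0.034 (RLE), 0.078 (library size), 0.0024 (these tissues alone), 0.0069 (DESeq2) and 0.18 (without the 4 libraries). Cd276 in bone marrow against lymph node went from 0.35 to -0.20 in DESeq2. The cause was not tested. All of the 9 genes but Vsir held at most a few counts in most libraries, and whether depth or the strand of counting limits them was not tested.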
